A study of Mus musculus with 6 samples.

Results

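The genes described here write, copy, remove and read methylation of cytosine in DNA. They are *Dnmt1*, *Dnmt3a*, *Dnmt3b*, *Dnmt3l*, *Uhrf1*, *Tet1*, *Tet2*, *Tet3*, *Tdg* and *Zfp57*, 10 of the 35565 genes listed, and were chosen by gene symbol for their role in this pathway. All 10 passed the filter on low counts that left 15110 genes for testing. DNMT3A and DNMT3B place methyl groups on unmethylated DNA, DNMT3L is their cofactor without catalytic activity, and DNMT1, guided by UHRF1 to freshly replicated DNA, copies the pattern to the daughter strand. TET1, TET2 and TET3 oxidise methylcytosine, TDG excises some of the oxidised bases, and ZFP57 binds methylated imprinting control regions and protects them. In the early mouse embryo methylation is low in naive pluripotent cells and is laid down as cells leave that state, with DNMT3B high in the epiblast and TET1 high in pluripotent cells.

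Bulk RNA sequencing measured gastruloids, aggregates of mouse embryonic stem cells (ESCs) that elongate along an anteroposterior axis, at day 5. There were 3 libraries of Control (NT) gastruloids, from cells with a non-targeting construct that the sample labels list as WT, and 3 libraries of KD-1 gastruloids, from 1 clone with a knockdown of the lncRNA *T-UCstem1*. Both cell lines derive from the ESC line TBV2 129/SvP, and both groups received 3 µM CHIR99021, a GSK3 inhibitor that activates WNT signalling. A difference between the clone and the control line other than the silencing cannot be told apart from it, and nothing in the labels says whether the libraries of a group came from separate cultures, so the p-values measure the spread between these libraries, which may be technical.

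Library totals ran from 20982249 to 85561026 estimated counts. The libraries are named by their depth within the group, because the column names do not carry the replicate numbers of the labels. *T-UCstem1* itself was not analysed here, so the knockdown was not checked. Its host gene *Arb2a* was not called, at 26.4 ± 0.748 CPM in KD-1 against 24.2 ± 2.09 in Control (NT) (SD, n = 3 each). The Control (NT) library of middle depth stood apart with transcript length: among tested genes whose longest transcript exceeds 9000 bases it lay 0.18 below its group on the log2 scale (median over 900 genes, pseudocount of 1 CPM), and among those under 1500 bases 0.08 above. In the same length classes the median log2 fold change of KD-1 over Control (NT) was 0.29 and -0.29. Among the 10 genes, the results that turn on this library are given with and without it.

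Of the 10 genes, *Tet1* and *Dnmt3b* rose in KD-1 gastruloids and *Dnmt3a*, *Dnmt3l* and *Tet3* fell. A gene was called when edgeR's quasi-likelihood test gave an adjusted p under 0.05 and the fold change over 1.5 or under 0.67. The 2 genes called higher compare with 19.7% of all genes tested, and the 3 called lower with 18.1%, 37.8% in all. With 10 genes these shares are near the background, so the number of calls is no result about the group, and the data concern which of the genes moved and in which direction. In bulk samples, fewer cells of a type and less RNA per cell cannot be told apart. The groups did not overlap in 8 of the 10 genes, all but *Tet2* and *Zfp57*, against 70.6% of the genes tested. The median log2 fold change of the 10 was -0.24, and that of all genes tested -0.01. The genes lie on chromosomes 2, 3, 6, 9, 10, 12 and 17, whose tested genes had median log2 fold changes from -0.16 (chromosome 17) to 0.07 (chromosome 12).

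**Figure D1:**
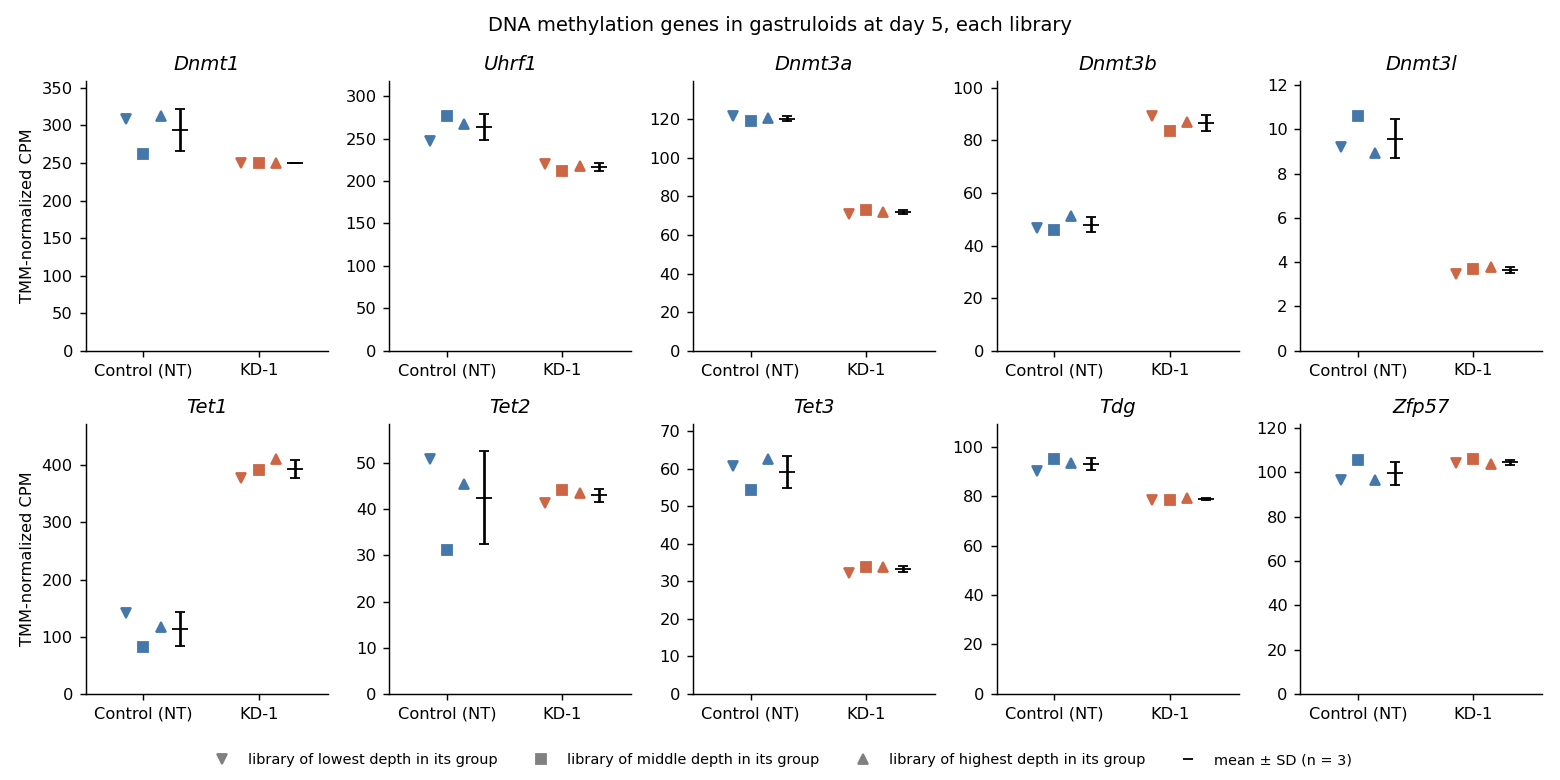
TMM-normalized CPM (vertical axis, from 0) of the 10 genes in each of the 3 Control (NT) and 3 KD-1 libraries, with the mean and SD (n = 3) beside the points and the symbol giving the depth of the library within its group. *Tet1* and *Dnmt3b* lie higher in every KD-1 library, *Dnmt3a*, *Dnmt3l* and *Tet3* lie lower, and the Control (NT) library of middle depth has the lowest *Tet1*, *Tet2* and *Dnmt1* of its group.

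Windows before a listed start site of the 5 genes called are shown. They differ in the density of CpG, the very dinucleotide that these enzymes modify. Each is the 250 bases before the most upstream start site that RefSeq lists (GRCm38.p6), written 5′ to 3′ on the strand of the gene, with every CG in capitals. All 10 genes matched the RefSeq table.

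Tet1: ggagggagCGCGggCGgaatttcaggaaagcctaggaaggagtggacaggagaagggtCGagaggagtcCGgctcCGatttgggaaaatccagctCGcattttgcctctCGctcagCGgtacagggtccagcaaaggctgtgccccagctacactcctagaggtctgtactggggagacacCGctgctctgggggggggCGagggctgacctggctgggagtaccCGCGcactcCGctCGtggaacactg
Tet3: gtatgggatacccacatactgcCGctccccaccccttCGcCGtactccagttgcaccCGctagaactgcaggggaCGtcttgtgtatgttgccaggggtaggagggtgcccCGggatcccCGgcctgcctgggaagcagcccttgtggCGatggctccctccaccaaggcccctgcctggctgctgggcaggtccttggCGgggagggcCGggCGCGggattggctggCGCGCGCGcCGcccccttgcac
Dnmt3a: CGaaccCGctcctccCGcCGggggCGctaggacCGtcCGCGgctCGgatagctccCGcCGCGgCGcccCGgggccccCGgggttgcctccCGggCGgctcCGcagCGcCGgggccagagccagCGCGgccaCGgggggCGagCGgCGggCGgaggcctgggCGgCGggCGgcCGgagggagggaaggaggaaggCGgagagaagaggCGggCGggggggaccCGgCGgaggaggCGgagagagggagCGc
Dnmt3b: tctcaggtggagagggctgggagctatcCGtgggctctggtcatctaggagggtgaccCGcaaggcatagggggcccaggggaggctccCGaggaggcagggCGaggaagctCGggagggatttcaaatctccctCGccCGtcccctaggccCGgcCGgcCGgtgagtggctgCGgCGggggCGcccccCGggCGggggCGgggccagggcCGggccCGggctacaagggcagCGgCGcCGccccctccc
Dnmt3l: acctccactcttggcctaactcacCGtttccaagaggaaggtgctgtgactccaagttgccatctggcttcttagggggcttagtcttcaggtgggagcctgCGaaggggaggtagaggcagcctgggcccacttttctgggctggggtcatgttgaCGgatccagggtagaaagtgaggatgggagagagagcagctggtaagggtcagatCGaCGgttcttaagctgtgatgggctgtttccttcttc

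The *Dnmt3a* window (chr12:3806730-3806979, plus strand) held 38 CpGs, and 98.1% of the 32851 windows of the same length in the table held fewer. The *Dnmt3b* window (chr2:153649199-153649448, plus strand) held 21, more than 83.7% of windows. *Tet3* (chr6:83441679-83441928, minus strand) had 17 CpGs and *Tet1* (chr10:62887325-62887574, minus strand) had 15. *Dnmt3l* (chr10:78042037-78042286, plus strand) had the fewest of the 5 genes called, with 5, close to the median of 6 over the table. Of the genes not called, *Tet2* had 51 CpGs, more than 99.9% of windows, *Tdg* 19, *Uhrf1* 10, *Zfp57* 6 and *Dnmt1* 2. The genes called higher (21 and 15 CpGs) thus lie within the range of those called lower (5 to 38). Other listed start sites gave other counts, among them 40 and 15 for *Dnmt3a*, 30 for *Uhrf1* and 7 and 26 for *Dnmt1*. Methylation of these windows was not measured, and gene-level counts do not tell which start site was used. The windows are in GRCm38.p6 and the gene spans below in GRCm39, so their positions are shifted against each other. A listed start site can also lie inside the gene span. By the shift seen for *Tdg* and *Dnmt3l* on the same chromosome, the *Tet1* window lies inside the span of that gene, not before it.

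The enzymes that methylate unmarked DNA changed in opposite directions. *Dnmt3a* (ENSMUSG00000020661, GRCm39 chromosome 12, from 3856007 to 3964443) had 122, 119 and 120.4 CPM in the Control (NT) libraries of lowest, middle and highest depth and 71.1, 73.2 and 71.8 in the corresponding KD-1 libraries. The spread within either group was at most 1.22 (SD), far less than the gap between them. *Dnmt3a* fell by 0.74 on the log2 scale (standard error, SE, 0.05, adjusted p = 4.32e-06). Its CpG-dense upstream window is the third sequence above.

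*Dnmt3b* (ENSMUSG00000027478, GRCm39 chromosome 2, from 153490861 to 153529650) encodes the other de novo enzyme. It had 46.7, 46.0 and 51.2 CPM in the Control (NT) libraries, in the same order of depth, and 89.2, 83.4 and 87.1 in the KD-1 libraries. Every KD-1 library was above every Control (NT) library. The log2 fold change was 0.85 (SE 0.06, adjusted p = 8.57e-06), a fold of 1.80. *Dnmt3c*, the neighbouring rodent copy of *Dnmt3b* that acts in male germ cells, had at most 6 counts in any library and was not tested.

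*Dnmt3l* (ENSMUSG00000000730, GRCm39 chromosome 10, from 77877781 to 77899456) had the fewest counts of the group and the largest fall. It had 9.21, 10.6 and 8.95 CPM in Control (NT) libraries and 3.48, 3.68 and 3.77 in the KD-1 libraries. The log2 fold change was -1.39 (SE 0.12, adjusted p = 1.77e-05), which leaves 0.381 of the Control (NT) level. *Dnmt3l* shares 67 exonic bases with *Aire* on the opposite strand, whether strand was used in counting is not given in the sources used here, and *Aire*, with at most 67 counts in any library, was also lower (log2 fold change -2.94). The processed pseudogenes *Dnmt3l-ps1* and *Dnmt3a-ps1* had 0 counts in all libraries.

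Both genes of the maintenance pair differed by less than the fold threshold. *Dnmt1* (ENSMUSG00000004099, GRCm39 chromosome 9, from 20817945 to 20871184) had 309, 262 and 312 CPM in Control (NT) libraries and 250.2, 250.6 and 250.2 in the KD-1 libraries. The KD-1 libraries lay below all Control (NT) libraries, with the Control (NT) library of middle depth nearest to them. The log2 fold change was -0.23 (95% interval -0.40 to -0.07, adjusted p = 0.0212), short of the fold threshold, and the adjusted p stayed under 0.05 in 9 of 15 other settings, in which it ran from 4.65e-05 to 0.0856. Leaving out the middle-depth Control (NT) library gave -0.31 (adjusted p = 4.65e-05). *Uhrf1* (ENSMUSG00000001228, GRCm39 chromosome 17, from 56610275 to 56630489) had 247, 276 and 267 CPM in Control (NT) libraries and 220.4, 212 and 218 in the KD-1 libraries. Its log2 fold change of -0.28 (95% interval -0.42 to -0.15, adjusted p = 0.00276) was also short of the fold threshold.

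With the adjusted p alone, which 32.6% of all genes tested passed in the lower and 30.9% in the higher direction, *Dnmt1*, *Uhrf1* and *Tdg* join the genes that were lower. The intervals of *Dnmt1*, *Uhrf1*, *Tdg*, *Tet2* and *Zfp57* all lie inside a 1.5-fold change in either direction.

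**Figure D2:**
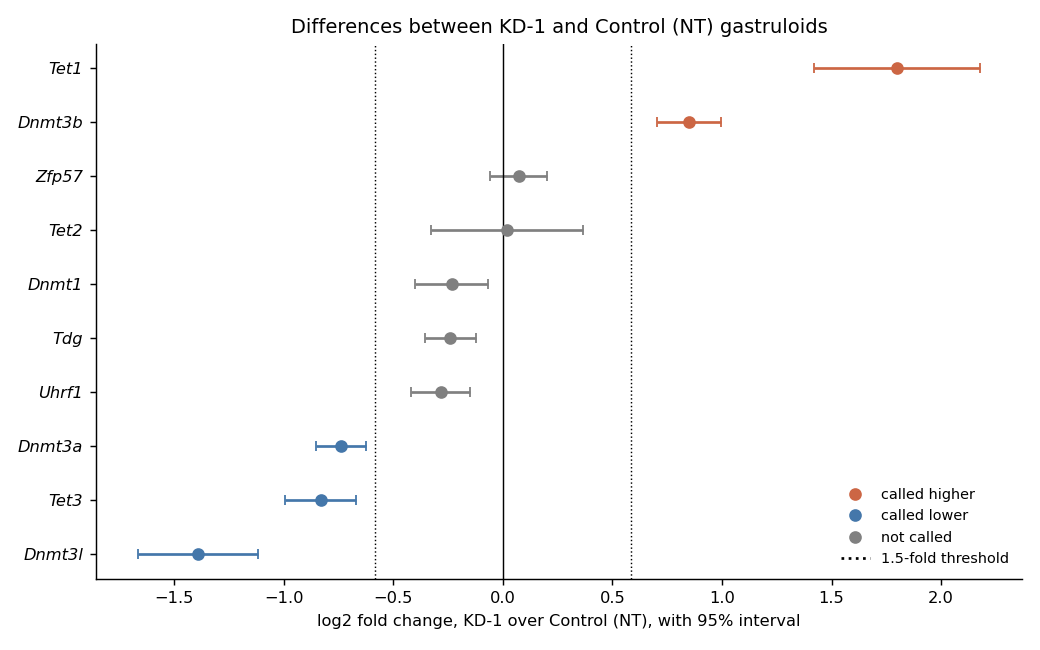
Log2 fold change of KD-1 over Control (NT) for the 10 genes (horizontal axis) with its 95% interval from edgeR's quasi-likelihood fit, 3 libraries a group, and dotted lines at the fold thresholds of 1.5 and 0.67. *Tet1* (1.80) and *Dnmt3b* (0.85) lie past the upper line, *Dnmt3a* (-0.74), *Tet3* (-0.83) and *Dnmt3l* (-1.39) past the lower one, and the intervals of the other 5 genes stay between the lines.

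Among the enzymes that oxidise methylcytosine, *Tet1* had the largest change of the group. *Tet1* (ENSMUSG00000047146, GRCm39 chromosome 10, from 62640349 to 62744775) had 141, 81.9 and 117 CPM in the Control (NT) libraries of lowest, middle and highest depth and 378, 392 and 410.1 in the KD-1 libraries. The lowest KD-1 library was above the highest Control (NT) library, although the Control (NT) libraries themselves differed among each other (SD 29.6). The fold was 3.48, or 1.80 on the log2 scale (SE 0.17, adjusted p = 2.69e-05), which ranked 1481 of the 15110 genes tested by size. With the middle-depth Control (NT) library left out, the log2 fold change was 1.61. The longest *Tet1* transcript has 14.38 kb, in a length class with a median log2 fold change of 0.29.

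*Tet3* moved the other way. It had 60.8, 54.4 and 62.5 CPM in Control (NT) libraries and 32.3, 33.8 and 33.7 in KD-1 (ENSMUSG00000034832, GRCm39 chromosome 6, from 83339355 to 83436066). The groups were far apart relative to their SDs of 4.28 and 0.827. The log2 fold change was -0.83 (SE 0.07, adjusted p = 1.73e-05). *Tet3* shares 1512 exonic bases with *Bola3* on the opposite strand, a gene with at most 621 counts in any library and no call. Its longest transcript, 10.9 kb, falls in the same length class as that of *Tet1*, and in that class 31.3% of tested genes were called higher and 12.3% lower.

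For *Tet2* no difference was detected. *Tet2* (ENSMUSG00000040943, GRCm39 chromosome 3, from 133169436 to 133250900) had 50.8, 31.2 and 45.5 CPM in Control (NT) libraries and 41.4, 44.2 and 43.4 in the KD-1 libraries. All KD-1 values lay within the range of the Control (NT) values. The log2 fold change was 0.02 (95% interval -0.33 to 0.37, adjusted p = 0.916). Leaving out the middle-depth Control (NT) library, which had the lowest value, gave -0.16 (adjusted p = 0.0354), so the sign rests on that library.

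*Tdg* (ENSMUSG00000034674, GRCm39 chromosome 10, from 82465610 to 82489654), whose glycosylase excises some of the oxidised bases, had 90.4, 94.9 and 93.6 CPM in Control (NT) libraries and 78.6, 78.4 and 79.1 in the KD-1 libraries. The groups did not overlap, and the log2 fold change of -0.24 (95% interval -0.36 to -0.12, adjusted p = 0.00318) was short of the fold threshold. *Tdg* has 2 processed pseudogenes in the table, and it held between 57.2% and 61.0% of the counts of the 3 together, so reads may be divided between them. The sum of *Tdg* and both pseudogenes went from 157 ± 3.87 CPM in Control (NT) to 137 ± 1.96 CPM in KD-1 (SD, n = 3 each), and the log2 ratio was -0.20. *Tdg* also shares 5389 exonic bases with *Glt8d2* on the opposite strand, a gene with at most 43 counts in any library.

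*Zfp57* (ENSMUSG00000036036, GRCm39 chromosome 17, from 37298936 to 37326192), the reader at imprinted regions, had 96.5, 106 and 96.4 CPM in Control (NT) libraries and 104, 106 and 104 in the KD-1 libraries. The values of the groups overlapped, with a log2 fold change of 0.07 (95% interval -0.06 to 0.20, adjusted p = 0.299). Leaving out the middle-depth Control (NT) library gave 0.11 (adjusted p = 0.0376), short of the fold threshold. *H2-M5*, which shares 139 exonic bases with *Zfp57* on the opposite strand, was called higher. The ZFP57 partner gene *Trim28*, the corepressor that KRAB zinc finger proteins recruit, had 585 ± 21.4 CPM in Control (NT) libraries and 535 ± 17.4 for KD-1 (SD, n = 3 each), which was not called. *Zfp445*, a second zinc finger gene that protects imprints, was 1.32-fold higher (log2 fold change 0.40, adjusted p = 0.0104), short of the fold threshold.

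Ratios of counts within a library do not depend on how libraries are scaled, and 8 such ratios were formed. The ratio of *Dnmt3b* to *Dnmt3a* was 0.384, 0.387 and 0.426 in Control (NT) libraries and 1.25, 1.14 and 1.21 in the KD-1 libraries. Counts of *Dnmt3a* thus exceeded those of *Dnmt3b* in every Control (NT) library and were exceeded by them in every KD-1 library. The annotated exons of *Dnmt3a* span 17.03 kb and those of *Dnmt3b* 6.199 kb. A count ratio of 1 therefore does not mark equal levels of these genes, which are compared per kb below. The ratio of *Dnmt3l* to *Dnmt3b* was 0.201 ± 0.0279 in Control (NT) and 0.0421 ± 0.00271 for KD-1 (SD, n = 3 each). *Dnmt3a* to *Dnmt1* went from 0.411 ± 0.0377 to 0.288 ± 0.00398, and *Dnmt3b* to *Dnmt1* from 0.164 ± 0.0122 to 0.346 ± 0.0120.

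The TET genes also shifted against each other. The ratio of *Tet1* to *Tet3* was 2.32, 1.51 and 1.87 in Control (NT) libraries and 11.7, 11.6 and 12.2 in KD-1, a fold of 6.32 between the group means on the log scale. *Tet1* to *Tet2* was steadier within Control (NT) than the level of either gene, at 2.77, 2.62 and 2.57, and was 9.14, 8.86 and 9.45 in the KD-1 libraries. *Tet2* to *Tet3* was 0.713 ± 0.131 in Control (NT) and 1.29 ± 0.0144 in the KD-1 libraries. In 7 of the 8 ratios the groups did not overlap, and each of these had an exact two-sided permutation p of 0.1, the smallest that 3 libraries against 3 allow, or 0.114 after Benjamini-Hochberg adjustment over the 8. The exception was *Dnmt1* to *Uhrf1*, 1.12 ± 0.155 in Control (NT) and 1.16 ± 0.0252 in KD-1 (exact permutation p = 0.9), whose mean log2 difference was 0.05, and -0.063 with the middle-depth Control (NT) library left out. The share of non-overlapping ratios among other gene pairs was not computed, and 70.6% of single genes tested did not overlap. Each of the 7 ratios holds a gene already called, so their number is no separate result.

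**Figure D3:**
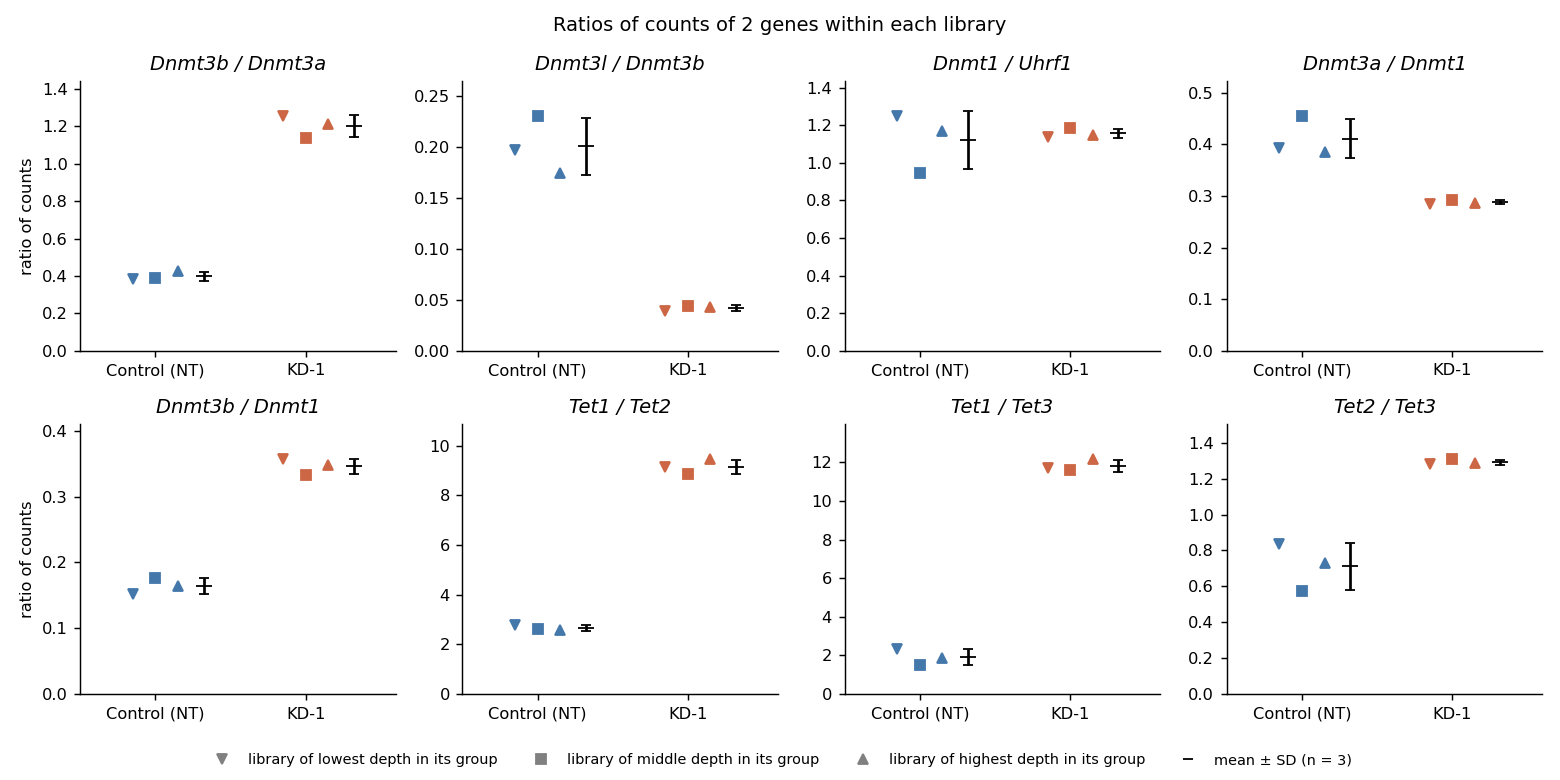
Ratio of the counts of 2 genes (vertical axis, from 0) within each Control (NT) and KD-1 library, with mean and SD (n = 3). The ratio of *Dnmt3b* to *Dnmt3a* is at least 1.14 in KD-1 and at most 0.426 in Control (NT), *Tet1* to *Tet3* is at least 11.6 in KD-1 and at most 2.32 in Control (NT), and *Dnmt1* to *Uhrf1* overlaps between the groups. Ratios are of counts without correction for gene length.

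Levels of different genes were compared as CPM per kb of annotated exons. *Uhrf1* had the highest level in both groups, 49.9 ± 2.81 in Control (NT) and 41.0 ± 0.853 in KD-1, followed by *Dnmt1* with 34.6 ± 3.30 and 29.5 ± 0.0273 (SD, n = 3 each). *Tet1* was the sixth of the 10 genes in Control (NT), with 7.32 ± 1.92, and the third in KD-1, with 25.4 ± 1.03. In Control (NT) it did not differ beyond its spread from its neighbours in this order, *Dnmt3b* (7.74 ± 0.458) and *Dnmt3a* (7.07 ± 0.0719). *Zfp57* (10.8 ± 0.571) and *Tdg* (9.85 ± 0.247) came between these and *Dnmt1*. *Tet3* (3.55 ± 0.256), *Dnmt3l* (3.11 ± 0.287) and *Tet2* (2.40 ± 0.570) were the lowest in Control (NT), and the ranges of *Tet3* and *Dnmt3l* overlapped.

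In KD-1 the order after *Tet1* was *Dnmt3b* (14.0 ± 0.472), *Zfp57* (11.4 ± 0.119), *Tdg* (8.34 ± 0.0406), *Dnmt3a* (4.23 ± 0.0621), *Tet2* (2.42 ± 0.0819), *Tet3* (1.99 ± 0.0495) and *Dnmt3l* (1.18 ± 0.0470). Neighbours in this order differed by more than their SDs. The length is that of all annotated exons of a gene together, and the transcripts in use may be shorter. With the longest transcript as length, *Dnmt3a* (12.1) lay above *Dnmt3b* (10.5) and *Tet1* (7.87) in Control (NT), which made *Tet1* the seventh, so the order of these genes in that group depends on the length used. The places in KD-1 were the same with either length.

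**Figure D4:**
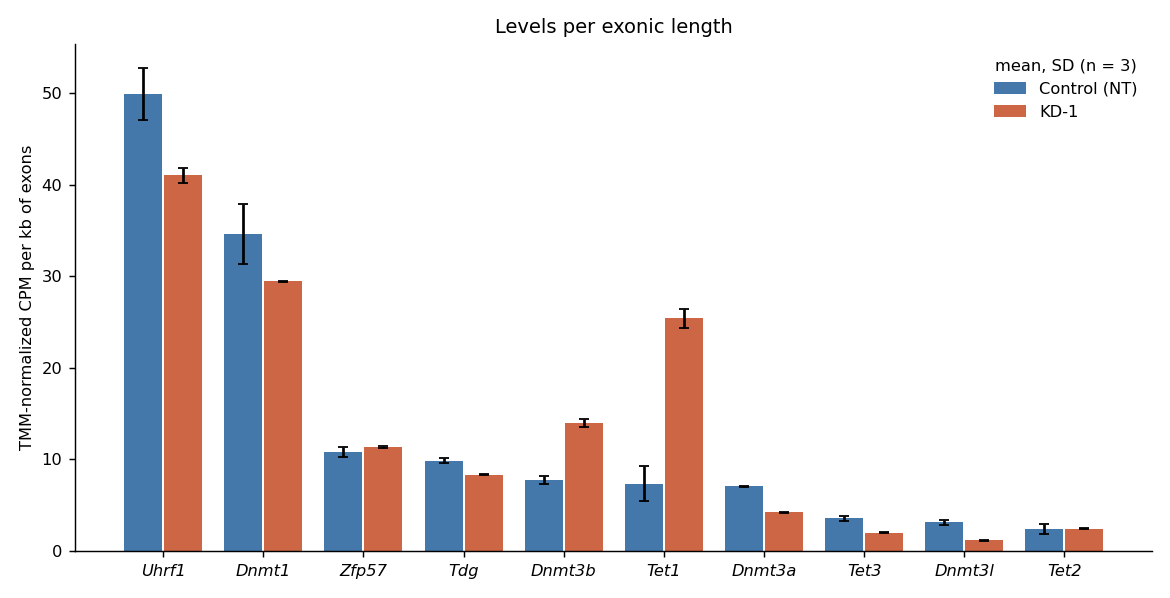
TMM-normalized CPM per kb of annotated exons (vertical axis, from 0) as mean with SD (n = 3) in Control (NT) and KD-1, the genes ordered by their Control (NT) level. *Uhrf1* and *Dnmt1* lead in both groups, and *Tet1* goes from 7.32 to 25.4, above *Dnmt3b*, *Zfp57* and *Tdg*.

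Of 62 other genes of the pathway, written out in 5 lists, 60 could be tested. KD-1 gastruloids had 13 of them called higher and 8 called lower. The background was 19.7% and 18.1% of all genes tested, and the 60 had a median log2 fold change of 0.10. Among 16 partners of the enzymes, 15 were tested, 3 rose and none was called lower. *Hells*, the chromatin remodeller that gives DNMTs access to DNA, had 209, 189 and 186 CPM in Control (NT) libraries and 337, 354 and 357 in KD-1 (log2 fold change 0.85, adjusted p = 8.37e-06). *Cdca7*, which recruits HELLS, was not called (0.02), nor was its paralog *Cdca7l* (-0.37).

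*Prdm14*, a repressor of the de novo methyltransferase genes in pluripotent and germ cells, rose from 5.12 ± 0.514 to 19.4 ± 1.29 CPM (SD, n = 3 each), 1.90 on the log2 scale (adjusted p = 1.37e-06). It lies on chromosome 1, where the median log2 fold change was 0.49. *Trdmt1*, a relative of the DNMTs that methylates tRNA, rose by 0.69 on the log2 scale. *Uhrf2* (0.52), the paralog of *Uhrf1*, *Usp7* (0.52), a deubiquitinase that binds DNMT1 and UHRF1, and *Mat2a* (0.49), which makes the methyl donor, had an adjusted p of at most 2.89e-04 and folds of 1.40 to 1.43, short of the threshold. *Dppa3*, an inhibitor of UHRF1, had 3.17 to 5.26 CPM in Control (NT) libraries and 5.54 to 6.82 in KD-1 libraries (adjusted p = 0.0503). *Setdb1*, *Ogt*, *Mat2b* and *Ahcy* were not called, with log2 fold changes from -0.05 to 0.11.

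Of 10 genes listed as readers of methylated CpG, all tested, 2 rose and 3 fell, against 19.7% and 18.1% of all genes tested. The list includes *Mbd3*, *Mbd5* and *Mbd6*, relatives whose proteins do not bind methylated CpG selectively. *Zbtb38*, a zinc finger protein that binds methylated DNA, rose from 11.7 ± 2.53 to 27.0 ± 0.399 CPM. *Mbd1* rose by 0.59 on the log2 scale, a fold of 1.502 that barely passed the threshold of 1.5. *Mbd3*, a subunit of the NuRD complex, fell from 65.3 ± 10.6 to 33.5 ± 2.16 CPM, and *Mbd6* fell by 0.66 on the log2 scale. *Mbd2* was also called lower (log2 fold change -0.65, adjusted p = 9.33e-04). Of 8 genes of CXXC proteins, which bind unmethylated CpG or recruit TET2, *Cxxc4* alone was called and rose from 10.1 ± 1.72 to 36.2 ± 2.28 CPM (log2 fold change 1.86, adjusted p = 3.22e-06). Among 10 methyltransferases of H3K36 and H3K9, marks that steer DNA methylation, *Nsd1* rose (0.71) and *Suv39h1* (-0.64) and *Ehmt2* (-0.60) fell.

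Among 18 genes of base excision repair and of proposed demethylation routes, 17 were tested, 6 rose and 3 fell, against the same background of 19.7% and 18.1%. *Apobec3*, a cytidine deaminase gene that restricts retroviruses, rose the most, from 12.6 ± 0.747 to 50.6 ± 2.34 CPM, followed by the glycosylase gene *Neil3* (log2 fold change 1.25). The largest falls, *Apobec2* (-1.69) and *Gadd45b* (-1.51), were in genes with at most 2.69 CPM in any library.

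**Figure D5:**
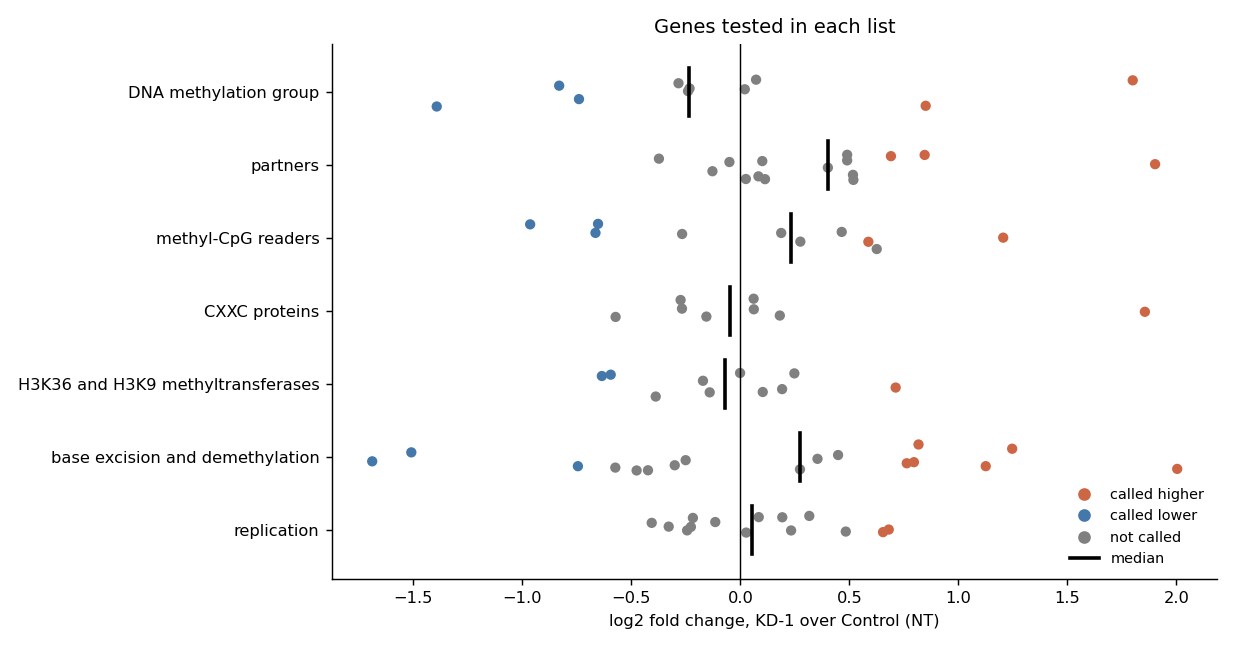
Log2 fold change of KD-1 over Control (NT) (horizontal axis) for the tested genes of the DNA methylation group, of 5 lists of other pathway genes and of a replication list, coloured by call, with the median of each list as a bar. Calls go both ways in the DNA methylation group, the list of methyl-CpG readers, the histone methyltransferases and the base excision list. The partners (3 of 15), the CXXC proteins (1 of 8) and the replication genes (2 of 14) have calls up only. Of all genes tested, 19.7% were called higher and 18.1% lower, so these small counts are no result about the lists.

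Several marker lists moved with these genes, and their part in the results was not tested. Their counts stand against 19.7% of all genes tested called higher and 18.1% called lower. Of 10 markers of naive pluripotency, 9 were called higher, and their summed level was 463 to 506 CPM in Control (NT) libraries and 1465 to 1502 in the KD-1 libraries. Among 8 formative and primed markers 5 were called higher and *Etv4* lower (summed level 338 to 464 and 767 to 821 CPM), and among 8 primordial germ cell markers 5 were called higher (summed level 125 to 135 and 224 to 228 CPM). All 8 somite markers were called lower, with a summed level of 521 to 602 CPM in Control (NT) libraries and 45.2 to 45.8 in the KD-1 libraries. Of 9 primitive streak, tail bud and presomitic markers 8 were tested and 5 called lower, and of 8 neural markers, all tested, 6 were called higher. The 6 include *Sox2*, which the study uses as a pluripotency marker. *Neurog2* was not called, and *Nes* had a log2 fold change of -0.44 (adjusted p = 2.79e-04), short of the fold threshold. Only 4 of 8 definitive endoderm markers passed the filter, of which *Epcam* was called higher and *Foxa1* and *Cer1* lower, and *Sox17*, *Foxa2*, *Gsc* and *Gata6* were not tested. *T* (Brachyury) had 6.69 ± 1.77 CPM in Control (NT) libraries and 5.42 ± 0.407 in KD-1, and the presomitic marker *Msgn1* was near 0 in both groups.

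Feeder cells are fibroblasts used in ESC culture, and the methods describe their removal by pre-plating for the colony formation assay of the same ESC lines. Their 8 markers summed to 22.7 to 26.5 CPM in Control (NT) libraries and 1.405 to 1.503 in KD-1. Most of the Control (NT) sum came from *Pdgfrb* (15.3 ± 1.78 CPM) and *Col3a1* (5.44 ± 0.328 CPM). *Col1a1* (0.552 ± 0.124 CPM) and *Col1a2* (1.31 ± 0.544 CPM) were low in Control (NT). Which cells this sum came from was not tested. Of the 8, 5 were tested and 4 were called lower, while *Thy1* had 0.132 ± 0.127 CPM in Control (NT) libraries and 0.451 ± 0.112 in KD-1 (SD, n = 3 each, adjusted p = 0.083). *Lum*, *Postn* and *Dcn* were not tested, and *Lum* and *Postn* were at 0 in all KD-1 libraries and at most 14 and 30 counts in Control (NT). *Dnmt1* and *Uhrf1* are expressed most in S phase. Of 14 replication genes, 2 were called higher (*Top2a* and *Mcm3*, the latter on chromosome 1) and none lower, against 19.7% and 18.1% of all genes tested. The median log2 fold change of the 14 was 0.06. Their summed level was 4171 to 4397 CPM in Control (NT) libraries and 4754 to 4800.5 in the KD-1 libraries. *Top2a* alone went from 831 ± 72.3 CPM in Control (NT) to 1332 ± 35.1 in KD-1 (SD, n = 3 each). *Pcna*, the clamp to which DNMT1 binds at the replication fork, had a log2 fold change of -0.33 (adjusted p = 8.98e-04), short of the fold threshold. It was named after its value was seen, and the list went both ways, from -0.41 (*Cdt1*) to 0.68 (*Top2a*).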

How the data were processed

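Libraries were made with a TruSeq kit and sequenced as paired-end reads. Per the submitters' processing notes, reads were demultiplexed with bcl2fastq and quantified with Salmon (version 1.1), which divides reads between similar transcripts by probability. The authors deposited estimated counts (expected counts) per Ensembl gene, as whole numbers and not normalized. The genome build, the use of strand and the way transcripts were summed are not given in the sources used here. Columns were assigned to groups by name.

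Names, positions and exon lengths came from GENCODE vM39 (GRCm39), which held 35222 of 35565 identifiers. Genes were tested with edgeR 4.0.16 in R 4.3.3: filterByExpr, TMM, a robust quasi-likelihood fit with the group as single term, and p-values adjusted by Benjamini-Hochberg across all 15110 tested genes. Every adjusted p is from this test unless another is named. Standard errors are the log2 fold change over the square root of the F statistic. CPM are TMM-normalized. Library totals of 20982249 to 85561026 set the precision, and a count of 0 allows up to 3 counts. Within a group, libraries differed by more than sampling noise (chi-square per degree of freedom 4.85 or more). The genes, the lists and the tests were chosen with earlier results of these data known. Named genes are the 10 genes, the 16 partners and *Arb2a*, and up to 2 called rises and 2 called falls of each other pathway list with at least 10 counts in every library of a group. Marker genes, replication genes, *Mbd2*, *Mbd5* and genes that overlap or copy one of the 10 were added to the text after their values were seen. The tests were tried on simulated data. Alternatives were DESeq2 1.42.0, limma-voom 3.58.1, other normalizations, filters and fold thresholds, no robust estimation, each library left out, another gene length and, added after seeing the data, removal of each library's trend with transcript length and summing of the *Tdg* copies.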

Additional observations from a re-analysis of the deposited data

How the results depend on the processing

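The 5 calls among the 10 genes held, with the same sign, under DESeq2, limma-voom, other normalizations and filters, no robust estimation, every left-out library and removal of the length trend. At an absolute log2 fold change over 1, 1 gene was called higher (*Tet1*) and 1 lower (*Dnmt3l*), with 6 and 2 pathway genes and 3274 genes in all. With no fold threshold 2 were called higher and 6 lower, with 24 and 17 pathway genes and 9597 genes in all. With the trend of each library with transcript length removed, *Tet1* had a log2 fold change of 1.498 and *Dnmt3a* -0.95, and those of *Tet2* (-0.17) and *Zfp57* (-0.044), not called in either fit, changed sign. That removal also takes out any real difference that follows length. When single libraries were omitted, the log2 fold change of *Tet1* ran from 1.61 to 1.98, of *Tet2* from -0.16 to 0.16, and the log2 difference in the ratio of *Dnmt1* to *Uhrf1* from -0.063 to 0.14. Genes called ran from 5179 to 6116. No paired analysis was possible because the columns do not carry the replicate numbers of the labels. Depth does not limit the 10 genes, all with at least 146 counts in every library. Isoforms could not be told apart in gene-level counts.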

Other observations

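Of 18 germline genes that are known to be silenced by promoter methylation, 14 were tested, 12 were called higher in KD-1 and 1 lower, against a background of 19.7% and 18.1% of all genes tested. Genes near 0 in Control (NT) entered the test only through their KD-1 counts, so these counts describe the genes that passed the filter. *Sohlh2*, a transcription factor gene of early germ cells, was counted 0, 0 and 1 times in Control (NT) libraries and 1093, 1032 and 2165 times in KD-1 libraries, and *Dazl*, an RNA-binding protein gene of germ cells, 2, 0 and 0 times and 293, 369 and 764 times (libraries of lowest, middle and highest depth in each group). *Tuba3a* was the exception, with 16.5 to 24.5 CPM in Control (NT) libraries and 2.29 to 3.13 in KD-1 libraries. DNA methylation was not measured in these samples, and a link between the germline genes and the DNA methylation genes was not tested.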
